A study of Mus musculus with 9 samples.

Results

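The globin genes of the mouse alpha and beta clusters, split into adult and embryonic type, were followed together with *Ahsp*, whose product holds free alpha chains, in the transcriptome of fetal liver (FL) macrophages in which *Xpr1*, the gene of a phosphate exporter, was targeted by a Cre recombinase. Members were taken by symbol: *Hba-a1* and *Hba-a2* (adult alpha), *Hbb-bs* and *Hbb-bt* (adult beta), *Hba-x* (embryonic alpha, also called zeta), *Hbb-y* and *Hbb-bh1* (embryonic beta) and *Ahsp*. Of these 8 genes, 7 had a row among the 13708 genes of the deposited table. *Ahsp* had none under its GENCODE identifier (ENSMUSG00000121605) and was not analysed here. Whether the table lists it under another identifier was not determined, since some identifiers of the table had no symbol in the annotation used.

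The samples were bulk RNA-seq libraries of cells sorted as CD45+, F4/80 high and CD11b low from livers of embryos at E15.5, 5 from *Mrc1Cre Xpr1fl/fl* and 4 from *Xpr1fl/fl* embryos. Both groups carry loxP sites around exon 2 of *Xpr1* on both alleles, on a C57BL/6JRj background, and differ by the Cre. The Cre is a codon-improved recombinase knocked into *Mrc1* together with eYFP and was carried on 1 allele. *Mrc1* (CD206) is also expressed by sinusoidal endothelial cells of the liver, so the deletion was not limited to macrophages. Erythrocytes were lysed before the sort, and 45 ng of total RNA was used for each stranded mRNA library. The normalized counts of a sample summed to between 26942921 and 28309443, a total that follows the authors' scaling and does not give the depth of sequencing, which is unknown here. The labels do not say whether each sample was 1 embryo or a pool, so that p-values measure the spread between these samples only.

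Hemoglobin is assembled from alpha-type and beta-type globin chains, each of which holds a heme. Primitive erythroid cells, which arise in the yolk sac, express the embryonic chains. Definitive erythroid cells, which mature in the fetal liver around macrophages in erythroblastic islands, express the adult chains. This split is not strict, and the ratios of the classes below were not compared with numbers of either kind of cell. Island macrophages bind erythroblasts and engulf the nuclei that these expel.

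Before the globins, 2 properties of the libraries were examined. The first was the genotype. *Xpr1* had 1173.5, 1187.4, 1073.7, 1285.3 and 1090.8 normalized counts in *Mrc1Cre Xpr1fl/fl* samples 1 to 5 and 1780.9, 1859.6, 2239.2 and 2046.7 in *Xpr1fl/fl* samples 1 to 4. No *Mrc1Cre Xpr1fl/fl* sample reached the lowest control, and the log2 fold change was −0.77 ± 0.08 (SE, limma adjusted p = 4.1e-05). The value counts transcripts of the whole gene, not of the floxed exon alone. *Mrc1*, into which the Cre was inserted, had 7063.6, 7222.9, 9094.8, 8566.2 and 5923.1 normalized counts against 23440.4, 22143.6, 28348.4 and 24840.7, a log2 fold change of −1.72 ± 0.12 (SE, limma adjusted p = 5e-06).

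The second property was the date that begins each column name, for which the sources used here give no meaning. *Mrc1Cre Xpr1fl/fl* sample 5 and *Xpr1fl/fl* samples 1 to 3 carry the earliest of 3 dates, *Xpr1fl/fl* sample 4 the middle one, and *Mrc1Cre Xpr1fl/fl* samples 1 to 4 the latest. For 4 of the 5 *Mrc1Cre Xpr1fl/fl* samples, the date and the genotype therefore cannot be told apart. Once the date enters the fit, the genotype is compared by *Mrc1Cre Xpr1fl/fl* sample 5 against the 3 controls of its date.

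The gate was checked by markers of macrophages. *Adgre1*, which encodes F4/80, had a mean of 46581 normalized counts in *Mrc1Cre Xpr1fl/fl* and 46008 in *Xpr1fl/fl*, and *Csf1r*, the most abundant of 12 macrophage markers and the receptor for the growth factor of these cells, 84995 and 77103. Of the 12 markers, 3 were lower, *C1qa* and *C1qc* among them, *Ptprc* (CD45) and *Spi1* were higher and 7 did not pass the test (limma), beside 21.6% of all genes tested that were lower and 21.5% that were higher, with a median fold change of −0.04 on the log2 scale over the 12. The lower markers numbered 5 with a common 75th percentile or without *Xpr1fl/fl* sample 2. *Spi1* was not called once the samples had a common 75th percentile (limma adjusted p = 0.0656).

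All 4 adult-type globins were lower in *Mrc1Cre Xpr1fl/fl* FL macrophages, to between 26.9% and 28.3% of the control level. The 3 embryonic-type globins were also lower, *Hba-x* to 62.2%, *Hbb-y* to 59.4% and *Hbb-bh1* to 30.9%. The 7 of 7 stand against 21.6% of the 13594 genes tested that were called lower in the same fit (limma on log2(normalized count + 1), Benjamini-Hochberg adjusted p under 0.05), while 21.5% were called higher. Scaling the samples to a common 75th percentile left all 7 lower and moved the higher genes from 49.9% to 35.0% of all calls, and scaling on macrophage markers also left all 7 lower. For 5 of the 7, the 4 adult globins and *Hbb-bh1*, the samples of the groups did not overlap, which held for 17.5% of all genes in this direction. In bulk samples, fewer cells or cell fragments with globin RNA and less globin RNA in each cannot be told apart.

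**Figure D1:**
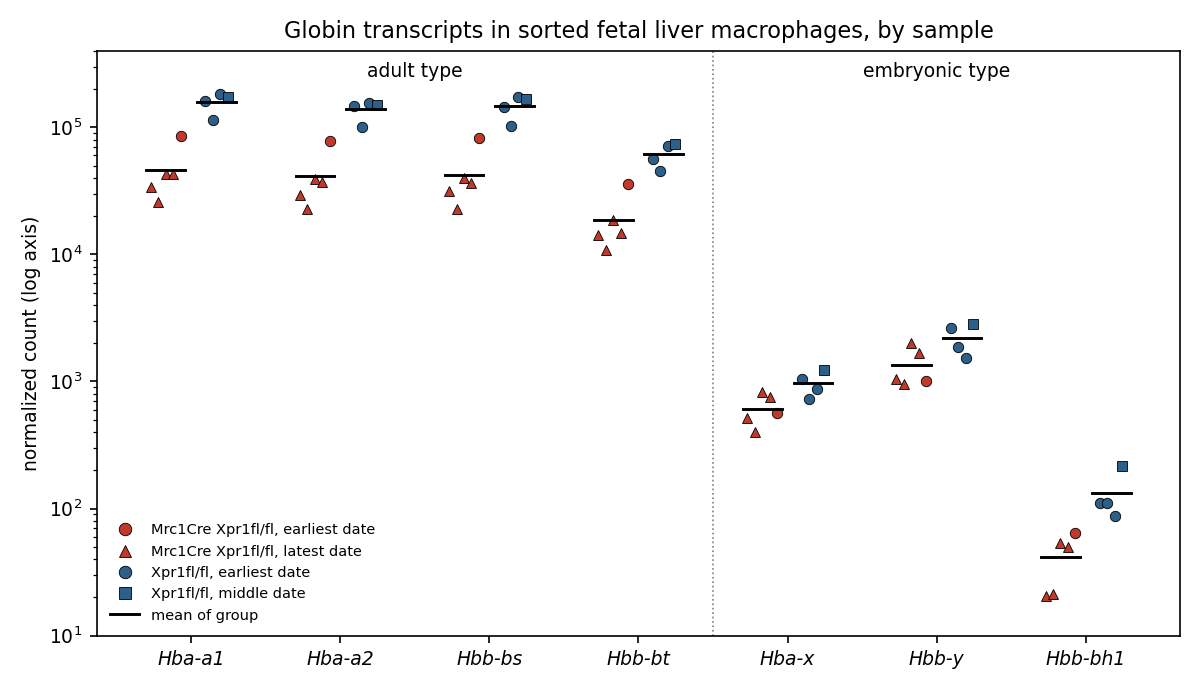
Normalized counts (log axis) of the 7 globin genes in each sample, with red for *Mrc1Cre Xpr1fl/fl* (n = 5), blue for *Xpr1fl/fl* (n = 4), symbols for the date in the column names and bars for group means. The adult globins of *Mrc1Cre Xpr1fl/fl* sample 5 (red circle) lie between the other *Mrc1Cre Xpr1fl/fl* samples and the controls, whereas its embryonic globins *Hba-x* and *Hbb-y* lie among the other *Mrc1Cre Xpr1fl/fl* samples.

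The 120 bases before the transcription starts of the adult genes are shown with those of the embryonic genes. The table of RefSeq promoters used here held an entry for 6 of the 7 members, and each 300-base entry was placed in GRCm39 by an exact match. The same entry matches at both *Hba-a1* and *Hba-a2*, whose windows are offset by 3 bases. Some GENCODE transcripts start upstream of the RefSeq start, within or before these windows. Capitals mark the CCAAT box, the CACCC box, the GATA factor motif GATAA and the TATA box motif TATAA, on either strand. *Hbb-bt* holds 3 CCAAT, of which a pair on opposite strands lie end to end.
Hba-a1 (chr11:32233552-32233671, plus strand): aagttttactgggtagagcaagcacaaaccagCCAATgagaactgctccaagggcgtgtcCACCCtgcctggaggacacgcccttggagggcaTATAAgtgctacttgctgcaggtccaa
Hba-a2 (chr11:32246372-32246491, plus strand): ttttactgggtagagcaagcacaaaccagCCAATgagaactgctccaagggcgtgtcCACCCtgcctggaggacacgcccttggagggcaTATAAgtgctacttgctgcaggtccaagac
Hba-x (chr11:32226480-32226599, plus strand): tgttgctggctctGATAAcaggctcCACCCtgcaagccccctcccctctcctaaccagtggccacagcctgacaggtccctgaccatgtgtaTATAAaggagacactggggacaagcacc
Hbb-bs (chr7:103477136-103477255, minus strand): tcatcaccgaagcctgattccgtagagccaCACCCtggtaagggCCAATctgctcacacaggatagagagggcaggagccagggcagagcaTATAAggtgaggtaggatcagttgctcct
Hbb-bt (chr7:103463131-103463250, minus strand): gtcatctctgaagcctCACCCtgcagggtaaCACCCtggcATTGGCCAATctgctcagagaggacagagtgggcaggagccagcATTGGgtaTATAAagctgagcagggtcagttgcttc
Hbb-y (chr7:103502415-103502534, minus strand): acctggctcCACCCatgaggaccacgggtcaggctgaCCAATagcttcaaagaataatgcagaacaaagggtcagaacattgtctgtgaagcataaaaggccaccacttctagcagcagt

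A CACCC was present in all 6 windows and in 31.7% of the 32851 RefSeq promoters of the same length. CCAAT was present in 5, all but *Hba-x*, and in 21.3% of all promoters. TATAA was present in 5, all but *Hbb-y*, and in 11.8% of all promoters, and GATAA only in *Hba-x* of the 6, and in 10.5% of all promoters. Each match is a description of letters in these windows and was not compared with binding.

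The adult alpha genes are a nearly identical pair on chromosome 11. *Hba-a1* (GRCm39, chr11:32233186-32234504, plus strand, 3 exons) had 33652.8, 25797.6, 42986.9, 43152.1 and 85791.2 normalized counts in *Mrc1Cre Xpr1fl/fl* samples 1 to 5. In *Xpr1fl/fl* samples 1 to 4 it had 161277.8, 113877.2, 181387.9 and 174291.3. *Mrc1Cre Xpr1fl/fl* sample 5 lay between the other 4 of its group and the controls. The log2 fold change was −1.87 ± 0.28 (SE, 95% confidence interval −2.49 to −1.25, limma adjusted p = 0.000389). *Hba-a1* ranked 7, 9, 6 and 5 among all genes by normalized count in the controls and 65, 99, 47, 46 and 17 in *Mrc1Cre Xpr1fl/fl*.

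*Hba-a2* (chr11:32246168-32247320, plus strand) had 29251.4, 22665.2, 39039.9, 36814.0 and 78054.1 normalized counts against 146432.2, 99775.7, 156614.9 and 149456.6. The order of the samples within *Mrc1Cre Xpr1fl/fl* was close to that of *Hba-a1*, with sample 2 lowest and sample 5 highest in both, and the log2 fold change was −1.86 ± 0.29 (SE, limma adjusted p = 0.000478). Of the 617 stretches of 31 bases in the *Hba-a2* transcript, 586 also occur in *Hba-a1*, so the division of reads between the copies rests on few bases and is uncertain. *Hba-a1* held between 52.4% and 54.0% of the summed pair in all 9 samples.

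The adult beta genes lie on chromosome 7. *Hbb-bs* (chr7:103475730-103482989, minus strand) had 31319.3, 22955.0, 40000.5, 36305.9 and 81703.9 normalized counts in *Mrc1Cre Xpr1fl/fl* and 144316.3, 102304.0, 172011.5 and 166072.8 in *Xpr1fl/fl*. Its log2 fold change was −1.89 ± 0.30 (SE, limma adjusted p = 0.000514). *Hbb-bt* (chr7:103461727-103465047, minus strand), the minor adult beta gene, had 14307.2, 10795.4, 18650.4, 14704.8 and 35472.3 against 56769.0, 45400.9, 70865.8 and 74276.5, with a log2 fold change of −1.82 ± 0.28 (SE, limma adjusted p = 0.000492). In both genes sample 5 was again the highest of its group and below all controls. The transcripts share 400 stretches of 31 bases, 63.1% of those of *Hbb-bs* and 59.4% of those of *Hbb-bt*, so that this division is also uncertain.

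*Hba-x*, the embryonic alpha gene (chr11:32226400-32228116, plus strand), had 512.9, 400.8, 821.2, 761.0 and 562.9 normalized counts in *Mrc1Cre Xpr1fl/fl* and 1053.7, 728.5, 875.5 and 1221.7 in *Xpr1fl/fl*. The groups overlapped, with *Mrc1Cre Xpr1fl/fl* samples 3 and 4 above *Xpr1fl/fl* sample 2. The log2 fold change was −0.69 ± 0.21 (SE, limma adjusted p = 0.0203). Without *Xpr1fl/fl* sample 1 or 4 the limma adjusted p was 0.057 or 0.0596.

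*Hbb-y*, the major embryonic beta gene (chr7:103500956-103502423, minus strand), had 1046.7, 951.6, 1997.3, 1688.0 and 1011.4 normalized counts against 2622.4, 1871.3, 1530.3 and 2846.9. *Mrc1Cre Xpr1fl/fl* samples 3 and 4 exceeded *Xpr1fl/fl* sample 3, and sample 5 stood with samples 1 and 2. The log2 fold change was −0.75 ± 0.25 (SE, limma adjusted p = 0.0281). This call was lost without *Mrc1Cre Xpr1fl/fl* sample 1, 2 or 5 (limma adjusted p = 0.0633, 0.0638 and 0.0536) and without *Xpr1fl/fl* sample 1 or 4 (limma adjusted p = 0.0827 and 0.0792).

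*Hbb-bh1*, the second embryonic beta gene (chr7:103490844-103492371, minus strand), was the least abundant member. It had 20.6, 21.1, 53.2, 50.1 and 64.0 normalized counts in *Mrc1Cre Xpr1fl/fl* and 111.3, 110.7, 87.9 and 217.0 in *Xpr1fl/fl*. The groups did not overlap, and the log2 fold change was −1.69 ± 0.38 (SE, limma adjusted p = 0.00455). It was the embryonic gene with the largest fold change, close in size to the adult genes. None of the embryonic genes shares a stretch of 31 bases with another member.

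Of 11 other globin genes and pseudogenes, 2 had a row. *Hbq1b*, a theta-type gene of the alpha cluster named here after its values were seen, had 41.4, 18.2, 45.1, 42.2 and 61.9 normalized counts against 123.9, 93.7, 170.1 and 197.2, and fell by 1.82 on the log2 scale (SE 0.33, limma adjusted p = 0.00118). *Adgb*, which encodes androglobin, a distant globin outside both clusters, was higher, with 1980.4 ± 304.0 against 1537.8 ± 165.7 (SD, n = 5 and 4), a difference of 0.36 ± 0.11 on the log2 scale (SE, limma adjusted p = 0.0261). This call was lost with a common 75th percentile (limma adjusted p = 0.073) and without *Mrc1Cre Xpr1fl/fl* sample 2 or 4 or *Xpr1fl/fl* sample 1 or 3 (limma adjusted p from 0.0522 to 0.0789). With the date in the fit, *Adgb* was higher by 0.56 on the log2 scale and was not called.

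Per kilobase of canonical transcript, the levels in the controls came in the order *Hbb-bs* (220145 ± 47558 normalized counts per kb, SD, n = 4), *Hba-a1* (213697 ± 41171), *Hba-a2* (213400 ± 40006), *Hbb-bt* (87824 ± 18917), *Hbb-y* (3504 ± 979), *Hba-x* (1211 ± 267) and *Hbb-bh1* (215 ± 94). The first 3 did not differ beyond their spread, and the steps below them did. In *Mrc1Cre Xpr1fl/fl* the order of these steps was the same, although the spreads of *Hbb-bs* and *Hbb-bt* over samples overlapped, from 63941 ± 34413 for *Hbb-bs* through 26685 ± 13827 for *Hbb-bt*, 2115 ± 749 for *Hbb-y* and 764 ± 219 for *Hba-x* to 68.2 ± 32.3 for *Hbb-bh1* (SD, n = 5).

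In the fit with the date, *Mrc1Cre Xpr1fl/fl* sample 5 is the only sample of its arm that informs the genotype difference, and it is assumed to vary like the 3 controls of its date and the 4 samples of the latest date, from which the spread comes. None of the 7 globins passed there, beside 4.54% of all genes that were called lower in that fit. The log2 fold changes were −0.80 for *Hba-a1*, −0.76 for *Hba-a2*, −0.74 for *Hbb-bs*, −0.68 for *Hbb-bt*, −0.64 for *Hba-x*, −0.95 for *Hbb-y* and −0.67 for *Hbb-bh1* (limma adjusted p from 0.128 to 0.473). All kept their sign. The adult globins moved from between −1.89 and −1.82 to between −0.80 and −0.68, and *Hba-x* and *Hbb-y* moved by less than 1 SE of the date-term fit. At an unadjusted p under 0.05, a rule met by 13.1% of all genes in this direction, 5 of the 7 were lower in that fit, the 4 adult globins and *Hbb-y*.

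**Figure D2:**
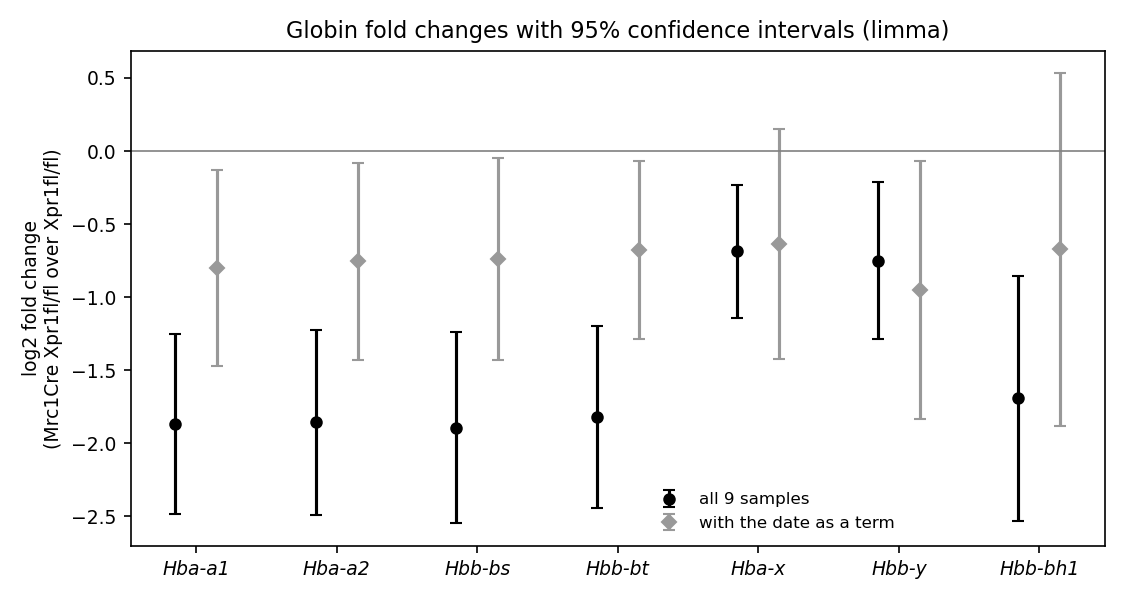
Log2 fold change of each globin gene (*Mrc1Cre Xpr1fl/fl* over *Xpr1fl/fl*) with its 95% confidence interval, from all 9 samples (black circles) and from the fit that holds the date (grey diamonds). Without the date every interval lies below 0, and with it the adult globins lie between −0.80 and −0.68 and the intervals of *Hba-x* and *Hbb-bh1* reach above 0.

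To describe the members as classes, which do not depend on how reads were divided between copies, normalized counts were summed. The adult sum was 108531, 82213, 140678, 130977 and 281022 in *Mrc1Cre Xpr1fl/fl* and 508795, 361358, 580880 and 564097 in *Xpr1fl/fl*. All 5 *Mrc1Cre Xpr1fl/fl* samples were below all controls, with a difference of −1.87 on the log2 scale. Since the members were chosen with earlier results known, sums and shares over them are given without a p. The same choice stands behind the ratios below, so that their p-values are not those of an unselected test. The embryonic sum was 1580.1, 1373.6, 2871.8, 2499.0 and 1638.3 against 3787.4, 2710.5, 2493.8 and 4285.7, a difference of −0.76, and the groups overlapped, with *Mrc1Cre Xpr1fl/fl* samples 3 and 4 above *Xpr1fl/fl* sample 3.

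The 7 globins together held 0.393%, 0.296%, 0.507%, 0.475% and 1.01% of all normalized counts in *Mrc1Cre Xpr1fl/fl* samples 1 to 5. In *Xpr1fl/fl* samples 1 to 4 they held 1.81%, 1.35%, 2.10% and 2.03%. The means were 0.536% ± 0.276 and 1.82% ± 0.337 (SD, n = 5 and 4), with no overlap. Within the earliest date, sample 5 was 0.747 percentage points below the mean of its 3 controls.

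The balance of alpha and beta transcripts was compared by the ratio of normalized counts per kb. The longest coding transcript of each gene served as its length. Protein chains were not measured. Ratios were tested by exact permutation over the 9 samples, where the smallest two-sided p is 0.0159, and adjusted over the 12 single values computed. Within the earliest date alone the smallest p is 0.5, so that differences there are given without a test. The alpha to beta ratio was 2.15, 2.22, 2.14, 2.42 and 2.24 in *Mrc1Cre Xpr1fl/fl* and 2.44, 2.29, 2.24 and 2.13 in *Xpr1fl/fl*, and the range of the first group lay within that of the second. The log2 ratios differed by −0.03, less than the SD of 0.07 in *Mrc1Cre Xpr1fl/fl* and 0.08 in *Xpr1fl/fl* (exact permutation p = 0.54, adjusted 0.589). The log2 ratio of the adult alpha to the adult beta genes alone differed by 0.003 (exact permutation p = 0.921, adjusted 0.921). The level of the ratio depends on the length chosen, since the longest coding model of *Hbb-bs* has 1246 bases and its canonical transcript 664. With canonical lengths, a choice made after the data were seen, the alpha to beta ratio was 1.37 ± 0.07 and 1.38 ± 0.07 (SD, n = 5 and 4). Within the adult beta genes, the *Hbb-bt* to *Hbb-bs* ratio was 0.576 ± 0.035 and 0.547 ± 0.033 (SD; exact permutation p = 0.238, adjusted 0.286).

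The balance of embryonic and adult type separated *Mrc1Cre Xpr1fl/fl* samples 1 to 4 from the other samples of both genotypes. Embryonic transcripts per kb were 1.81%, 2.08%, 2.55%, 2.35% and 0.72% of adult ones in *Mrc1Cre Xpr1fl/fl* samples 1 to 5 and 0.925%, 0.939%, 0.530% and 0.955% in *Xpr1fl/fl* samples 1 to 4. The 4 *Mrc1Cre Xpr1fl/fl* samples of the latest date lay above every control, and sample 5, of the earliest date, lay among the controls. Over all samples the log2 ratio was 1.10 higher in *Mrc1Cre Xpr1fl/fl*, which did not pass (exact permutation p = 0.0635, adjusted 0.0953). Against the controls of its own date, sample 5 differed by −0.10.

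The same arrangement held within each cluster. *Hba-x* was 0.721%, 0.731%, 0.884%, 0.841% and 0.303% of the adult alpha genes in *Mrc1Cre Xpr1fl/fl* and 0.302%, 0.301%, 0.229% and 0.334% in *Xpr1fl/fl*. The log2 difference was 1.18 over all samples (exact permutation p = 0.0317, adjusted 0.0951) and 0.14 within the earliest date. *Hbb-y* and *Hbb-bh1* together were 4.22%, 5.20%, 6.31%, 6.20% and 1.66% of the adult beta genes, against 2.48%, 2.43%, 1.21% and 2.31%. Here the log2 difference was 1.08 over all samples (exact permutation p = 0.0635, adjusted 0.0953) and −0.22 within the earliest date.

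The embryonic beta genes were also set against each other. *Hbb-bh1* was 2.03%, 2.29%, 2.75%, 3.07% and 6.54% of *Hbb-y* per kb in *Mrc1Cre Xpr1fl/fl* and 4.38%, 6.11%, 5.93% and 7.87% in *Xpr1fl/fl*. Samples 1 to 4 were below every control and sample 5 was within their range. The log2 ratio differed by −0.97 over all samples (exact permutation p = 0.0635, adjusted 0.0953) and by 0.27 in the opposite direction within the earliest date.

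**Figure D3:**
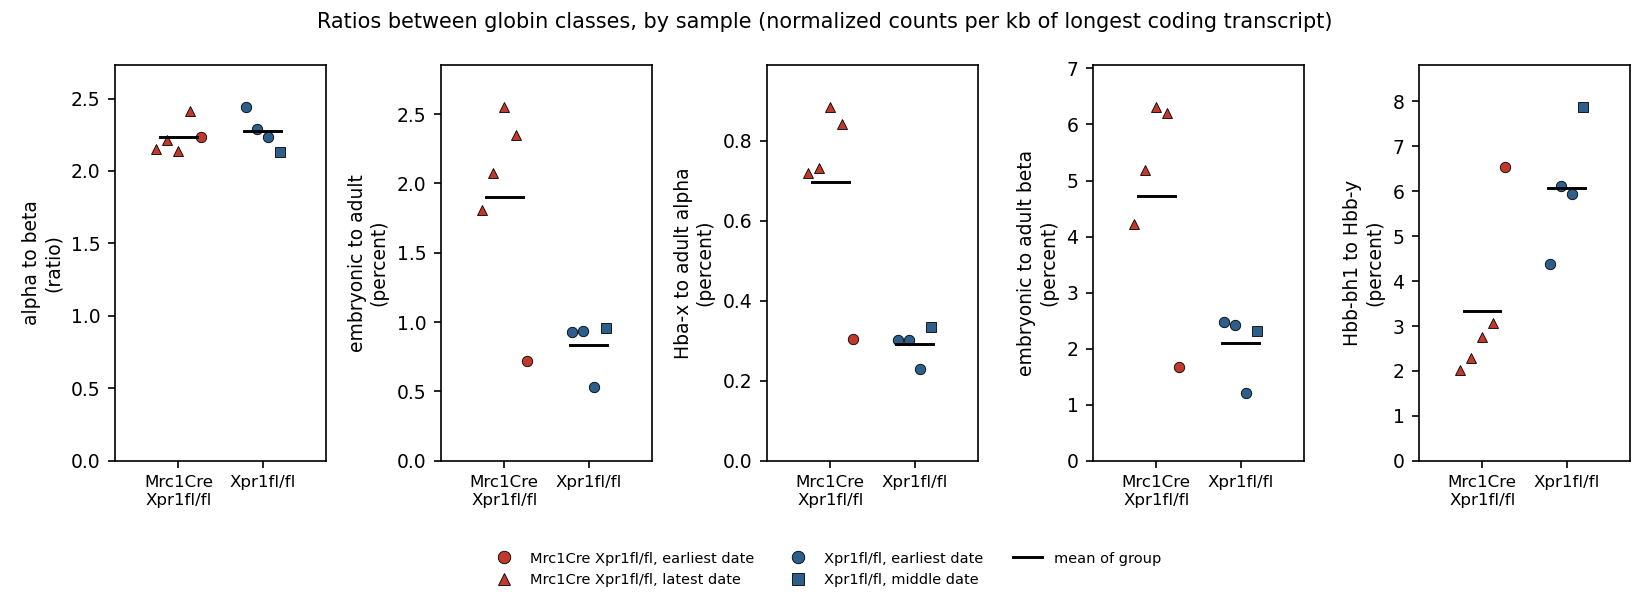
Ratios between globin classes in each sample, from normalized counts per kb of the longest coding transcript, with symbols for the date in the column names and bars for group means. The alpha to beta ratio lies between 2.13 and 2.44 in all 9 samples, whereas in the other 4 panels the *Mrc1Cre Xpr1fl/fl* samples of the latest date (red triangles) stand apart and sample 5 (red circle) lies within the range of the controls.

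The members were next compared across the 9 samples on the log2 scale, as a description over samples that share genotype and date. Deviations from the genotype means of the adult genes had a Pearson r between 0.97 and 0.998 with each other. Those of *Hba-x* and *Hbb-y* had an r of 0.887 with each other, and of 0.445 and 0.0847 with *Hba-a1*. *Hbb-bh1* lay between, with an r of 0.688 with *Hba-a1* and 0.729 with *Hba-x*.

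Outside the members, the 5 genes whose log2 values were most like the mean of the adult globins included *Trim10*, *Cldn13*, *Phospho1* and *Fam210b*, with a Pearson r from 0.996 to 0.997 over the 9 samples and from 0.983 to 0.99 for deviations from the genotype means. *Trim10* fell from a mean of 2025.3 to 662.3 normalized counts and *Fam210b* from 1475.4 to 503.4. In all, 351 genes had an r over 0.95 with the adult mean. For the embryonic mean there were 7 such genes, and the most alike were *Sft2d1*, *Wdr27*, *Chchd5*, *Dmac2l* and *Pkp4* (r from 0.952 to 0.973, and from 0.877 to 0.929 for the deviations). Their log2 fold changes lay between −1.27 for *Wdr27*, with a mean of 4.7 against 11.7 normalized counts, and −0.21 for *Pkp4*.

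Other transcripts of red cell precursors were lower too. In the lists that follow, the abundant genes were named by rule, 4 in each erythroid list and 1 in each other list, and the remaining ones after their values were seen. The counts of lower genes stand beside 21.6% of all genes. Of 17 genes of the red cell membrane, all 17 were lower, with a median log2 fold change of −1.78 beside 0.005 over all genes. *Slc4a1*, the anion exchanger band 3, had 6947.8, 5072.4, 7834.3, 7446.3 and 12909.4 normalized counts in *Mrc1Cre Xpr1fl/fl* and 22129.3, 21071.1, 33063.7 and 32432.7 in *Xpr1fl/fl* (log2 fold change −1.79 ± 0.23 SE, limma adjusted p = 0.000148). Sample 5 was the highest of its group and below every control, as for the adult globins. *Sptb* (beta-spectrin) and *Ermap* had log2 fold changes of −1.71 and −1.65, and *Epb41* (protein 4.1), which many cell types express, −0.49.

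Of 13 genes of heme synthesis and its iron supply, 12 were lower, with a median of −1.18. The abundant ones were *Tfrc*, the transferrin receptor (−0.45 ± 0.12 SE), *Slc25a37*, the mitochondrial iron importer mitoferrin (−1.62 ± 0.20), *Cpox* (−1.40 ± 0.15) and *Fech*, which inserts iron into the porphyrin ring (−1.15 ± 0.14). The gene that did not pass was *Alas1*, the synthase of non-erythroid cells, with 1205.3 against 1191.3 normalized counts. Its erythroid counterpart *Alas2* had 2091.8 against 6838.0, or −1.77 on the log2 scale (limma adjusted p = 0.000513).

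Of 12 genes of the late erythroid cytoplasm, 11 were lower, with a median of −1.42. *Car2*, a carbonic anhydrase, fell by 1.86 on the log2 scale and *Prdx2*, a peroxidase of red cells, by 0.80. *Blvrb* and *Slc25a39* fell by 0.26 and 0.21. *Alox15*, the gene that did not pass, had 29.9 against 55.1 normalized counts.

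Among 15 regulators of globin genes, 12 fell, 2 rose and 1 did not pass, and the median was −1.55. The abundant ones were *Zbtb7a*, *Lmo2*, *Ldb1* and *Tal1*. *Tal1*, a factor of the complex that also holds LMO2 and LDB1, fell by 1.66 on the log2 scale, *Lmo2* by 0.62 and *Ldb1* by 0.48. *Zbtb7a*, a repressor of embryonic and fetal globins, was higher by 0.21 ± 0.05 (SE, limma adjusted p = 0.0071). *Hic2*, the other gene that was higher, had a log2 fold change of 0.30, a call lost without *Xpr1fl/fl* sample 3 or with a common 75th percentile (limma adjusted p = 0.0591 and 0.0674), and *Lin28b*, which did not pass, had 615.1 against 598.0 normalized counts. With the date in the fit, *Zbtb7a* was higher by 0.16 and *Hic2* by 0.29, and neither was called. *Klf1* fell by 1.88 and *Gata1* fell by 1.86, both master factors of the erythroid lineage, and *Bcl11a*, another repressor of embryonic beta genes, fell by 1.62.

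**Figure D4:**
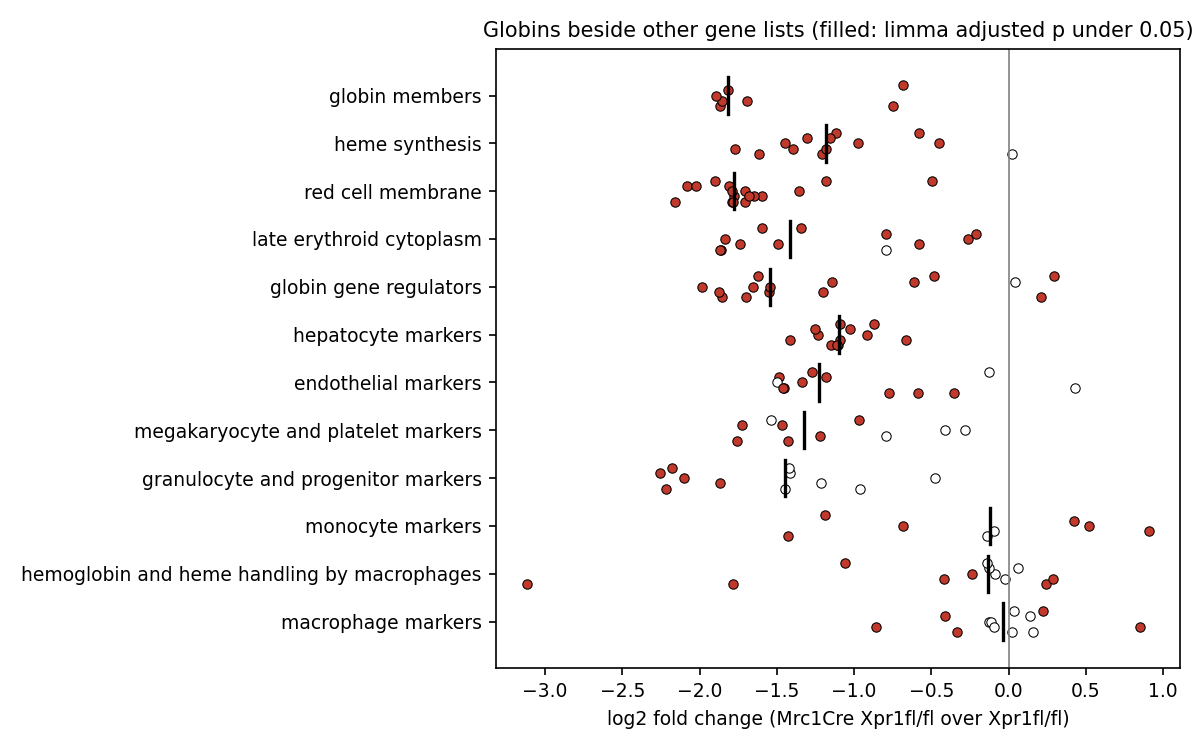
Log2 fold change (*Mrc1Cre Xpr1fl/fl* over *Xpr1fl/fl*) of each gene of 12 lists, filled where the limma adjusted p was under 0.05, with a vertical bar at the median of each list. The medians of the globins and of the 4 erythroid lists lie between −1.82 and −1.18, those of hepatocyte, endothelial, megakaryocyte and granulocyte markers between −1.44 and −1.10, and those of monocyte, heme handling and macrophage genes between −0.13 and −0.04.

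The adult globins were set against these genes by subtracting, in each sample, the mean log2 value of the 30 membrane and heme genes from that of the adult globins. The difference was 4.58, 4.53, 4.81, 4.72 and 5.29 in *Mrc1Cre Xpr1fl/fl* and 5.41, 5.02, 5.24 and 5.23 in *Xpr1fl/fl*. Samples 1 to 4 were below every control, and sample 5 was within their range. The group means differed by −0.44, by −0.18 with the red cell membrane genes alone in place of the 30, and by 0.07 within the earliest date.

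When the date entered the fit, 9 of the 17 membrane genes, 7 of the 13 heme genes, 7 of the 15 regulators and 3 of the 12 cytoplasmic genes were called lower, beside 4.54% of all genes in that fit, with list medians of −0.97, −0.75, −1.01 and −0.65. *Slc25a37*, *Cpox*, *Fech*, *Lmo2*, *Tal1* and *Car2* were among them. The median of the 7 globins in that fit was −0.74.

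Handling of hemoglobin and heme by macrophages was less uniform. Of 12 genes, 5 fell and 2 rose, and the median was −0.13. *Ftl1*, the ferritin light chain, was the most abundant, with 190933 ± 12677 against 210909 ± 23933 normalized counts (SD, n = 5 and 4, limma adjusted p = 0.241). *Cd163*, the hemoglobin scavenger receptor, fell by 3.12 on the log2 scale, from 381.6 to 41.2, and fell by 3.21 in the fit that holds the date (limma adjusted p = 0.00345). The other 4 lower genes were *Hpx* and *Hp*, plasma scavengers of heme and hemoglobin, *Hmox1* and *Blvra*. *Hmox1* breaks down heme, and *Blvra*, which acts on a product of that step, was not called after scaling on macrophage markers (limma adjusted p = 0.064). The groups overlapped for *Hp*, with 105.5 to 338.5 normalized counts against 279.3 to 1174.7, and for *Hmox1*. None of these 4 was called in the fit that holds the date (limma adjusted p from 0.0784 to 0.645). *Hmox1* fell by 0.42, a call lost without *Mrc1Cre Xpr1fl/fl* sample 1, 2 or 4 or *Xpr1fl/fl* sample 1, 3 or 4 (limma adjusted p from 0.0564 to 0.101). *Spic* and *Nfe2l2*, regulators of iron recycling and of the oxidative stress response, were higher by 0.24 and 0.29, and *Spic* was not called once the samples had a common 75th percentile or without *Mrc1Cre Xpr1fl/fl* sample 4 or *Xpr1fl/fl* sample 2, 3 or 4 (limma adjusted p from 0.0518 to 0.0624 without these). In the fit that holds the date, *Spic* was higher by 0.42 (limma adjusted p = 0.0464) and *Nfe2l2* was not called (limma adjusted p = 0.164).

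Markers of other liver cells were also lower in *Mrc1Cre Xpr1fl/fl*. All 12 hepatocyte markers were lower (median −1.10), with sums of 44507, 35855, 39272.5, 41735 and 46183 normalized counts in *Mrc1Cre Xpr1fl/fl* and 73164, 60413, 75822 and 104698 in *Xpr1fl/fl*. *Mrc1Cre Xpr1fl/fl* sample 5 was close to sample 1 in this sum, whereas its adult globins were far above those of the other 4, and *Xpr1fl/fl* sample 4 was the highest control. The most abundant was *Trf*, with 19651 to 23250 normalized counts in *Mrc1Cre Xpr1fl/fl* and 27161 to 38738 in *Xpr1fl/fl*. This gene alone is a large part of these sums. Of the 12, 0 were at 0 in every sample. Of 12 endothelial markers 9 were lower (median −1.23), with sums of 6827 to 8945 against 11269 to 15556 and *Stab2* as the most abundant. *Stab2* fell by 0.78 and *Trf* by 0.67 on the log2 scale. In the fit that holds the date, 2 of the 12 hepatocyte markers and 2 of the 12 endothelial markers were called lower. *Alb*, the main plasma protein of hepatocytes, had 8475.2 against 18823.2 normalized counts.

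Of 10 megakaryocyte markers 6 were lower (sums of 770 to 1178 against 2382.5 to 2904, with *Pf4*, which fell by 1.76, the most abundant). The count was 3 without *Mrc1Cre Xpr1fl/fl* sample 3 or 4 or *Xpr1fl/fl* sample 1, 3 or 4, and 8 without *Mrc1Cre Xpr1fl/fl* sample 5. Of 11 granulocyte and progenitor markers 5 were lower, *Elane*, *Mpo*, *Prtn3*, *Ctsg* and *Ms4a3*, and without *Xpr1fl/fl* sample 4 the count was 10. The sums of this list were 5531, 5114, 8682, 6418 and 18424 against 33290, 20315, 55215 and 9340, so the groups overlapped, as did *S100a9*, the most abundant of them. Among 8 monocyte markers, *Ly6c2* and *F13a1* were lower and *Itgam*, *Plac8* and *Cx3cr1* higher, with sums of 17758 to 24626.5 against 13914 to 17118, and *Cx3cr1*, the most abundant, rose by 0.52. With the date in the fit, *Cx3cr1* was higher by 0.24 and was not called. No marker of these lists was at 0 in every sample. The part of other cell types in the lower globin values was not tested.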

How the data were processed

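Bulk RNA-seq of FL macrophages was analysed in 9 samples. Per the paper's methods, the authors quantified reads with salmon against GRCm39, imported them with tximport and deposited 1 table of normalized counts, scaled by DESeq2 (unit signal). The values are not whole. In no sample could whole reads be recovered (17.1% to 33.6% of low values within 0.1 of a step, 20% by chance), so that no count test was run and depth is unknown. The lowest mean of any gene was 5.79. Of 13708 identifiers 13698 had a symbol in GENCODE release M39.

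Normalized counts were tested with limma 3.58.1 (R 4.3.3, eBayes with trend) on log2 values after adding a pseudocount of 1. A gene entered if 4 or more samples had 10 or more normalized counts (13594 genes), with genotype as the only term and Benjamini-Hochberg adjustment at 0.05. Fold changes are on that scale. Two-sided exact permutation tests (scipy 1.17.1) were computed for 12 sums, ratios and shares and adjusted together, and the text gives those of the ratios. Groups came from the labels. The script was tested on simulated data. By rule, the genes named were the members, *Xpr1*, *Mrc1*, the 4 most abundant genes of each erythroid list, the most abundant of each other list, and the 5 genes most like the adult and the embryonic mean, and other genes were named after their values were seen. Some genes of the rule and lists are not reported here. The members, lists and tests were chosen with earlier results of these data known. Promoter sequences came from RefSeq. Alternatives covered pseudocounts, filters, scaling, the date, the replicate number, transcript length and single samples.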

Additional observations from a re-analysis of the deposited data

Results flagged for a closer look

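In 5 of 38 groups of samples examined, 1 sample lay farther from the others of its group than Dixon's 95% value allows, where chance gives about 1 in 20 groups, or 1.9. *Hba-a1* was highest in *Mrc1Cre Xpr1fl/fl* sample 5 at 85791.2 normalized counts, against 25797.6 to 43152.1 in the other 4. The log2 ratio of embryonic to adult globins was lowest in the same sample at −7.118 (others −5.79 to −5.294), as was that of the alpha cluster at −8.365 (others −7.117 to −6.822). Sample 5 is the 1 sample of its genotype with the earliest date.

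Among the controls, *Xpr1fl/fl* sample 3 had the lowest log2 ratio of embryonic to adult globins at −7.559 (others −6.756 to −6.71) and the lowest ratio in the beta cluster at −6.367 (others −5.437 to −5.335).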

How the results depend on the processing

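When the date entered the fit, 1194 genes were called and no globin was. The log2 fold changes were −0.80, −0.76, −0.74 and −0.68 for *Hba-a1*, *Hba-a2*, *Hbb-bs* and *Hbb-bt*, and −0.64, −0.95 and −0.67 for *Hba-x*, *Hbb-y* and *Hbb-bh1*. Lower genes numbered 7 (heme synthesis), 9 (red cell membrane), 7 (regulators), 3 (late cytoplasm), 1 (heme handling), 1 (macrophage), 2 (hepatocyte), 2 (endothelial), 1 (megakaryocyte), 1 (monocyte) and 0 (other globins), while the granulocyte and progenitor markers had 5 with and without the date. Within the earliest date, where no permutation test can pass, the adult sum differed by −0.76, all globins by −0.76, the globin share by −0.75 percentage points and the *Hba-x* to adult alpha ratio by 0.14. The adult alpha to beta ratio (−0.0599), the embryonic to adult ratio (−0.10), that of the beta cluster (−0.22), *Hbb-bh1* to *Hbb-y* (0.27) and the globins against erythroid genes (0.0726) turned direction. The cause was not tested.

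The replicate numbers did not pair the samples (r of same-numbered deviations −0.033, 0.147, −0.011 and −0.031). No control carries the number of *Mrc1Cre Xpr1fl/fl* sample 5, which therefore does not inform the genotype difference in a fit with the replicate block. That difference comes from the *Mrc1Cre Xpr1fl/fl* samples of the latest date, and all 7 globins were lower in it. Over the 4 pairs, where no exact test can pass, the adult sum differed by −2.13 and all globins by −2.11. The share differed by −1.40 percentage points and the alpha cluster ratio by 1.45. Scaling to the 75th percentile moved the embryonic sum to −0.84 and the lower macrophage markers to 5. Without the trend *Hbb-y* had −0.75 (limma adjusted p = 0.0596), and a filter of 50 left 3 lower megakaryocyte markers. Against the red cell membrane genes alone, the adult globins differed by −0.18 in place of −0.44.

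With each sample left out in turn, the log2 fold change lay between −0.81 and −0.55 for *Hba-x* and −0.91 and −0.62 for *Hbb-y*, the lower genes between 3 and 5 (macrophage), 3 and 8 (megakaryocyte) and 5 and 10 (granulocyte), and the log2 ratio between −0.0575 and 0.00689 (alpha to beta), −0.0306 and 0.039 (adult alpha to beta), 0.89 and 1.42 (embryonic to adult), 1.07 and 1.45 (alpha cluster), 0.83 and 1.42 (beta cluster), −1.25 and −0.83 (*Hbb-bh1* to *Hbb-y*) and −0.56 and −0.37 (globins against erythroid genes). The count test on recovered reads and the *Ahsp* ratio were not run.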
